A study of Mus musculus with 4 samples.

Results

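The 10 genes described here mark the passage of a blood monocyte into a tissue macrophage: Ly6c2, Ccr2 and Chil3 on the monocyte side, and C1qa, C1qb, C1qc, Cd163, Mrc1, Apoe and Adgre1 on the macrophage side. They were taken by symbol from the 32285 genes of the series, and all 10 were found. Single cells of adult mouse colon (strain C57/BL6J) were counted by droplet sequencing of transcript 3′ ends in 2 batches. Within a batch, cells of 4 conditions carried different antibody hashtags and were run together. The members were followed in myeloid barcodes, defined as kept cells with a transcript of Lyz2 (lysozyme) or C1qa and none of the epithelial genes Epcam and Krt8. There were 1441 of these among 13629 kept cells, 435 in batch 1 and 1006 in batch 2. C1qa, and through it C1qb and C1qc, are thus partly set by the definition, although 1427 of the 1441 barcodes carried Lyz2 and 14 entered by C1qa alone.

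The conditions were JUP-KO mice given dextran sulfate sodium (DSS, which damages gut epithelium and causes colitis), JUP-KO mice left untreated, wild type mice given DSS and wild type mice left untreated. Jup encodes plakoglobin, a junction protein of epithelia. The antibody features are named TG_DSS, TG_WT, Ctrl_DSS and Ctrl_WT, and no source used here ties these names to the antibody numbers of the protocol. By name, TG_WT is untreated JUP-KO and Ctrl_DSS is wild type given DSS. By antibody order these change places, while TG_DSS stays JUP-KO given DSS and Ctrl_WT stays untreated wild type. Groups are therefore called by their tag. How Jup was deleted, the age of the mice, the DSS dose and duration, and whether the batches are separate mice are not given in the sources used here, so p-values measure the spread between 2 sums of cells per tag, which may be technical. The cells of a batch shared 1 library.

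Circulating monocytes that carry Ly6C and the chemokine receptor CCR2 enter the gut wall throughout life and in larger numbers when the wall is inflamed. There they lose Ly6C, gain MHC class II and become macrophages that express C1q, CD163 and the mannose receptor and clear dead cells. In an inflamed gut many cells stop on the way and secrete IL-1β and other inflammatory products. The growth factor receptor CSF1R and the transcription factor PU.1 are known to act along this path.

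Promoters are shown for the members, from both ends of the path, whose windows held the letters marked below. Each is a 300-base RefSeq window of build GRCm38.p6, from 250 bases before to 50 bases after a transcription start, written 5′ to 3′ on the gene's strand. Capitals mark the letters GAGGAAG, a PU.1-type motif (CTTCCTC on the other strand), which was searched on both strands and was present in 13.6% of all 32851 windows of this length.
Ly6c2, chr15:75111922-75112221, minus strand: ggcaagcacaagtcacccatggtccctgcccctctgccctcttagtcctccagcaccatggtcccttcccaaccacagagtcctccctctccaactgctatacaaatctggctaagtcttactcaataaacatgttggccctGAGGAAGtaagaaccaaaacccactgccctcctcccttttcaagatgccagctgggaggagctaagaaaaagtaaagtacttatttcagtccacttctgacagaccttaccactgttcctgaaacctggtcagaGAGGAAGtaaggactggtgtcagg
C1qc, chr4:136892865-136893164, minus strand: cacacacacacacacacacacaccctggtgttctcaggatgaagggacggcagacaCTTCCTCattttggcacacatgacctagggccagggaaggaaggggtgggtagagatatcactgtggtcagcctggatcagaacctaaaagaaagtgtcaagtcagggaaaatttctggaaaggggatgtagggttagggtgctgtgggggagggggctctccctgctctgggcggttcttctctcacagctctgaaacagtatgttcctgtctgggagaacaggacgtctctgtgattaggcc
Mrc1, chr2:14229164-14229463, plus strand: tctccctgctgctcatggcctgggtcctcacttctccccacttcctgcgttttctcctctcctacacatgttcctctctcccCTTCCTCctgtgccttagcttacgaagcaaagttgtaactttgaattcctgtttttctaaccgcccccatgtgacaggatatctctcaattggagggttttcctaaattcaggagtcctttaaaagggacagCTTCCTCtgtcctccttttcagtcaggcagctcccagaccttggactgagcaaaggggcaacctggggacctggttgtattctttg
The Ly6c2 window held the PU.1-type letters 108 bases before and 26 bases after the start, and the Mrc1 window held them 168 and 36 bases before it. The C1qc window held them once, 194 bases before the start. The window of another Ly6c2 start, not shown, held them 142 and 8 bases before that start. The letters were not in the windows of Chil3, C1qb, Ccr2, Cd163 and Apoe, and no window was searched for C1qa and Adgre1. The MAF half-site letters TGCTGA, in 19.5% of all windows, were also searched. Among the members' windows they were in those of C1qb and Chil3 only. Such matches are a description of letters and not of bound factors. The 3 C1q genes are neighbours on the minus strand of mm10 chromosome 4, C1qb from 136880129 to 136886187, C1qc from 136889804 to 136893065 and C1qa from 136895917 to 136898803.

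Myeloid barcodes were split into 809 with more transcripts of mononuclear genes (such as Csf1r, Ms4a7 and Ms4a6c) and 581 with more of neutrophil genes (such as Csf3r and Cxcr2), while 51 had neither or equal numbers and 102 lay within 1 UMI (a counted molecule) of the mononuclear limit. Mononuclear-side barcodes had medians of 4862 and 5755 UMIs in batches 1 and 2. A single tag was called on 652 of them, in batches 1 and 2 on 142 and 222 labelled TG_DSS, 15 and 223 labelled TG_WT, 8 and 16 labelled Ctrl_DSS, and 16 and 10 labelled Ctrl_WT. The TG_WT sum of batch 1 stood apart: 4.41% of cells with that tag were myeloid in batch 1, against 25.7% in batch 2, and its 15 mononuclear-side barcodes had no Ly6c2 transcript. Results that rest on it are also given without it. Both batches' kept cells had 14 barcode sequences in common.

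Tyrobp, a signalling adaptor of myeloid cells that was not used to choose or split the barcodes, was in 94.0% and 96.8% of mononuclear-side barcodes of batches 1 and 2. In epithelial barcodes, which should lack these genes and were deeper (medians of 17071 and 15805 UMIs), 4.43% and 6.75% had an Apoe transcript and at most 1.72% had one of any other member. In mononuclear-side barcodes of batches 1 and 2 the shares were 31.0% and 40.3% for Ly6c2, 64.4% and 67.8% for Ccr2, 38.4% and 49.7% for Chil3, 47.2% and 33.4% for C1qa, and 78.7% and 81.6% for Apoe. Cd163 was the rarest member, at 5.09% and 5.56%. Apoe was not particular to myeloid cells, since 63.9% and 64.0% of fibroblast barcodes (Col1a1 and Dcn with transcripts) carried it. Neutrophil-side barcodes, at lower medians of 3037 and 3692 UMIs, carried Ly6c2 in 16.5% and 18.1%, Chil3 in 2.43% and 14.9% and C1qa in 4.37% and 9.87%. Ly6c1, a near copy of Ly6c2 whose reads could be confused with it, was in 1.39% and 1.35% of mononuclear-side barcodes and in 78.9% and 76.6% of fibroblast barcodes, where Ly6c2 was in 0 of 133 and 2 of 278.

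Of the 3 monocyte genes, Ly6c2 and Chil3 were at their highest levels in mononuclear-side barcodes labelled TG_DSS in both batches and in those labelled TG_WT in batch 2, while Ccr2 was not. Values are UMIs of the summed barcodes scaled to a common total (CPM), given for batch 1 and then batch 2. Ly6c2, which encodes the surface antigen that defines inflammatory monocytes, had 228 and 141 CPM with TG_DSS, 0 and 223 with TG_WT, 126 and 27.4 with Ctrl_DSS, and 0 and 0 with Ctrl_WT. For TG_WT the 0 in batch 1 allowed up to 35.3 CPM, and the 0s of Ctrl_WT up to 30.1 and 59.5 CPM (3 counts of each total). The TG_DSS sums lay above the Ctrl_WT limits, while the Ctrl_DSS value of batch 1 was 7 UMIs of a single barcode. Ly6c2 with TG_DSS was 7.57-fold above the Ctrl_WT limit in batch 1 and 2.37-fold above it in batch 2. These limits cover counting error only and rest on 16 and 10 Ctrl_WT barcodes. UMIs of a barcode can come together, as the 7 of Ctrl_DSS did, so the limits do not bound the level of the condition.

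Ccr2, the receptor that lets monocytes leave the marrow and follow CCL2, had 591 and 489 CPM with TG_DSS, 153 and 500.2 with TG_WT, 89.7 and 610.4 with Ctrl_DSS, and 352 and 1090.3 with Ctrl_WT. Its values overlapped between all tags. Chil3, the chitinase-like secreted protein Ym1 of mouse monocytes and activated macrophages, had 744 and 1738 CPM with TG_DSS, 23.5 and 601 with TG_WT, 0 and 6.86 with Ctrl_DSS, and 90.4 and 99.1 with Ctrl_WT. Both TG_DSS values lay above every value of the other 3 tags, and how many of all genes separate in this way was not counted. As mean ± SD over the 2 batches, Chil3 was at 1241 ± 703 CPM with TG_DSS, 312 ± 408 with TG_WT, 3.43 ± 4.85 with Ctrl_DSS and 94.8 ± 6.13 with Ctrl_WT (n = 2 each).

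Chil3 with TG_DSS came from many barcodes, 69 of 142 in batch 1 (571 UMIs, at most 64 in 1 barcode) and 124 of 222 in batch 2 (2348 UMIs, at most 116 in 1 barcode). With Ctrl_DSS it was a single UMI in the 8 and 16 barcodes of both batches together. With Ctrl_WT the 9 and 5 UMIs each lay in 1 barcode. Chil3 with TG_DSS was at least 13.8-fold higher than with Ctrl_DSS in batch 1, where the 0 allowed up to 53.8 CPM, and 253-fold higher in batch 2 (95% counting interval 45.4 to 10014). Its ratio to TG_WT was 31.6 (8.71 to 262, from 2 UMIs in TG_WT) in batch 1 and 2.89 (2.68 to 3.13) in batch 2. These intervals and the limit for the 0 cover counting error only.

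**Figure D1:**
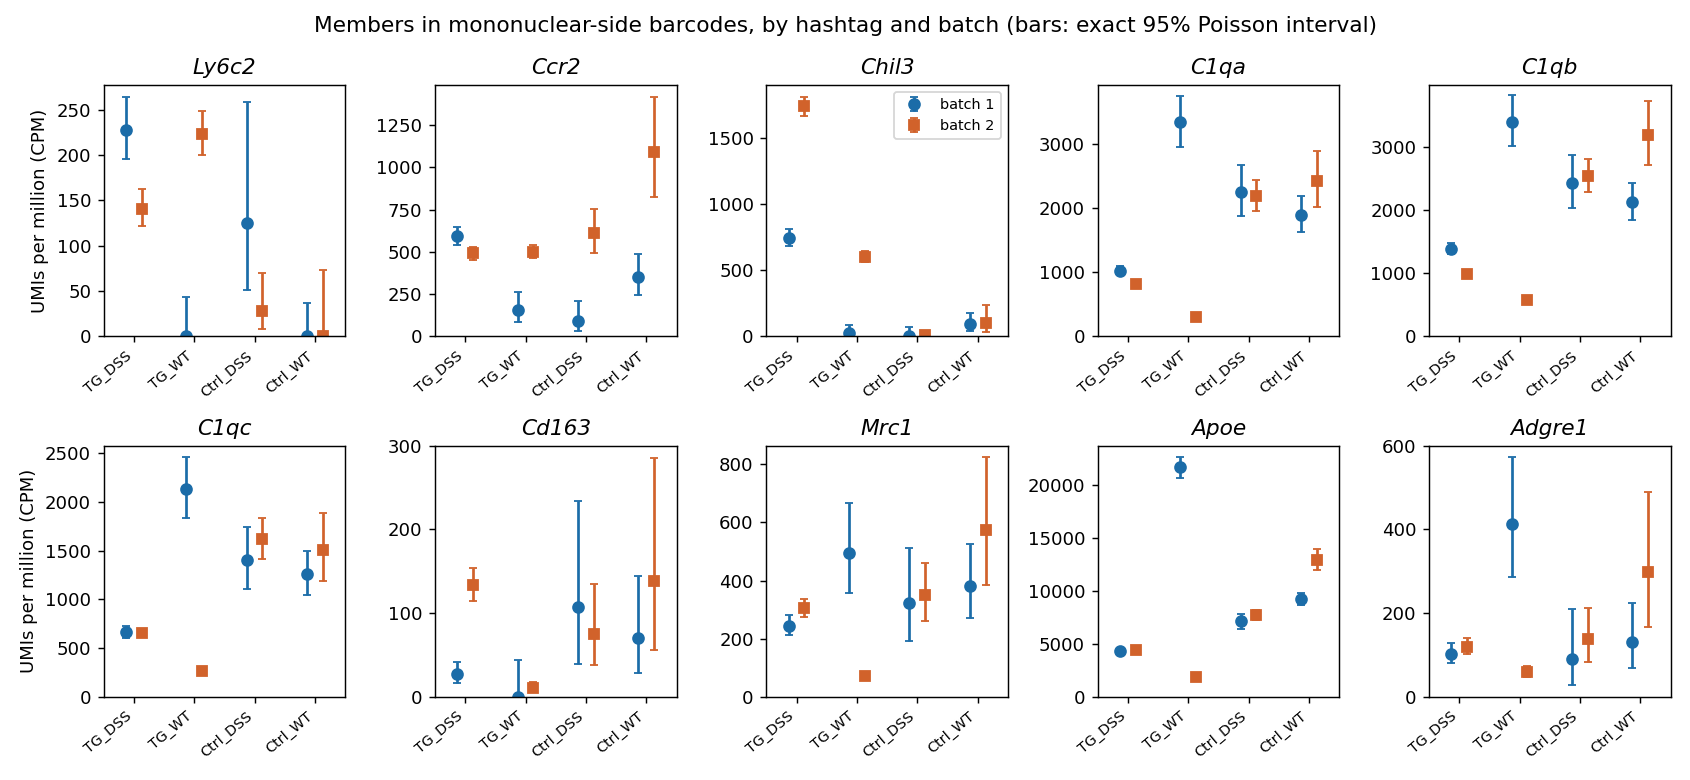
Level of each of the 10 members in mononuclear-side barcodes (CPM, y axis) by tag (x axis: TG_DSS, TG_WT, Ctrl_DSS, Ctrl_WT), with 1 point per batch and bars for exact Poisson 95% intervals of counting error. Chil3 stands highest with TG_DSS in both batches (744 and 1738 CPM), and the 2 TG_WT points of Apoe lie far apart (21689 CPM in batch 1 and 1849.95 in batch 2).

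The C1q genes, which encode the 3 chains of the complement protein that tags dead cells and microbes, had lower values with TG_DSS than with Ctrl_DSS or Ctrl_WT in both batches. In these barcodes the difference from Ctrl_DSS passed the test below for C1qa and C1qc only when the TG_WT sum of batch 1 was left out. For C1qb it passed in no fit. C1qa had 1018 and 818 CPM with TG_DSS, 3332 and 299 with TG_WT, 2242 and 2181 with Ctrl_DSS, and 1889 and 2418 with Ctrl_WT. C1qb had 1383 and 981 CPM with TG_DSS, 3403 and 565 with TG_WT, 2421 and 2538 with Ctrl_DSS, and 2120.4 and 3192 with Ctrl_WT. C1qc had 665 and 651 CPM with TG_DSS, 2131 and 261 with TG_WT, 1399 and 1619 with Ctrl_DSS, and 1256 and 1507 with Ctrl_WT. For each chain the TG_DSS values did not overlap those of Ctrl_DSS or Ctrl_WT, and the 2 TG_WT values were the highest and the lowest of all 8. An exact permutation test of 2 values against 2 cannot go below p = 0.33. How many of all genes separate likewise was not counted. The ratio of C1qa with TG_DSS to Ctrl_DSS was 0.454 (counting interval 0.376 to 0.553) in batch 1 and 0.375 (0.331 to 0.426) in batch 2.

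These sums mix how many barcodes carry a gene with how much each carries, and fewer C1q-bearing cells and less C1q per cell cannot be told apart from them alone. C1qa was found in 55 of 142 and 66 of 222 barcodes with TG_DSS (38.7% and 29.7%), 13 of 15 and 46 of 223 with TG_WT (86.7% and 20.6%), 5 of 8 and 11 of 16 with Ctrl_DSS (62.5% and 68.8%), and 10 of 16 and 9 of 10 with Ctrl_WT (62.5% and 90%). The share of barcodes with C1qa followed the same order as its CPM in batch 2, and TG_DSS was lowest by both in batch 1. These barcodes held 781 and 1105 C1qa UMIs with TG_DSS, 283 and 449 with TG_WT, 125 and 318 with Ctrl_DSS, and 188 and 122 with Ctrl_WT. Per barcode with C1qa, TG_DSS thus held fewer UMIs than Ctrl_DSS in both batches, and fewer than Ctrl_WT in batch 1 but not in batch 2. The parts of share and amount were not tested. Median depths of these barcodes were 4787.5 and 5390 UMIs with TG_DSS, 4743 and 5882 with TG_WT, 6034 and 8012 with Ctrl_DSS, and 6020 and 4631.5 with Ctrl_WT, and the part of depth in these shares was not tested.

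With tags pooled, the 3 chains had close proportions in the 2 batches. UMIs count 3′ ends and need no length correction, although capture can differ between transcripts. C1qb gave 42.8% and 43.0% of all C1q UMIs of tagged mononuclear-side barcodes in batches 1 and 2, C1qa 34.7% and 31.8%, and C1qc 22.5% and 25.2%. By tag they varied more. C1qb ran from 38.4% in TG_WT of batch 1 to 50.2% in TG_WT of batch 2, where C1qa was at 37.6% and 26.6%. All 3 chains were found together in 74 of the 98 tagged barcodes with any C1q in batch 1 (75.5%) and in 108 of 175 in batch 2 (61.7%). The lowest share was that of TG_WT in batch 2, at 35 of 74 (47.3%).

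Apoe, which carries lipids out of macrophages, had 4309.5 and 4457 CPM with TG_DSS, 21689 and 1849.95 with TG_WT, 7139 and 7737 with Ctrl_DSS, and 9235 and 12965 with Ctrl_WT. Mrc1, the mannose receptor CD206, had 245 and 304 CPM with TG_DSS, 495 and 70.0 with TG_WT, 323 and 349.8 with Ctrl_DSS, and 382 and 575 with Ctrl_WT. Both genes had lower values with TG_DSS than with either Ctrl tag, without overlap, and how many of all genes do so was not counted. The ratio of Mrc1 with TG_DSS to Ctrl_DSS was 0.759 (counting interval 0.467 to 1.31) in batch 1. In batch 2 it was 0.870 (0.649 to 1.19), so both intervals held equal levels. With Ctrl_DSS, 1 barcode held 31 of 51 Mrc1 UMIs in batch 2 and 1 held 208 of 398 Apoe UMIs in batch 1. The TG_WT values of Apoe were the highest and the lowest of all 8, and those of Mrc1 were the lowest and the second highest. Adgre1, the F4/80 antigen of mouse macrophages, had 103 and 119.9 CPM with TG_DSS, 412 and 60.0 with TG_WT, 89.7 and 137 with Ctrl_DSS, and 131 and 297 with Ctrl_WT. Its TG_DSS and Ctrl_DSS values overlapped.

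Cd163, the scavenger receptor for haemoglobin bound to haptoglobin, had 27.4 and 133 CPM with TG_DSS, 0 and 10.7 with TG_WT, 108 and 75.4 with Ctrl_DSS, and 70.3 and 139 with Ctrl_WT. TG_WT was lowest in both batches, although its 0 in batch 1 allowed up to 35.3 CPM, above the TG_DSS value of that batch. Cd163 rested on few barcodes. With TG_DSS it came from 5 of 142 barcodes in batch 1 (21 UMIs) and 16 of 222 in batch 2 (180 UMIs), and no barcode held more than 39 of the UMIs of batch 2. In batch 2 its level with TG_DSS was 12.5-fold that with TG_WT (counting interval 7.48 to 22.3), and its level with TG_WT was 0.0769-fold that with Ctrl_WT (0.0299 to 0.221).

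Differences between tags were tested on the 8 sums with edgeR's quasi-likelihood test, with batch as a term and Benjamini-Hochberg adjustment over all genes tested at a threshold of 0.05. All 10 members passed the filter on low counts. Over all myeloid barcodes, TG_DSS against Ctrl_DSS called 1 of 10 members, Chil3, beside 4.60% of the 2500 genes tested (4.32% higher and 0.280% lower with TG_DSS). Chil3 was at 438 and 1201 CPM with TG_DSS and at 0 and 6.46 CPM with Ctrl_DSS in these sums. Its log2 fold change was 7.97 (SE 1.30, edgeR adjusted p = 0.0202), with 7.41 and 7.04 within the batches, and it was positive in both. The call was lost when either Ctrl_DSS sum was left out (adjusted p = 0.0707 without batch 1 and 0.143 without batch 2), and the Ctrl_DSS level rested on 1 UMI, so the size of the fold change is poorly fixed.

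Restricted to mononuclear-side barcodes, the same contrast called 0 of 10 members by edgeR beside 0.0854% of 2342 genes. Without adjustment 238 genes had p under 0.05. DESeq2 called 29 genes, 1 of them a member, Chil3. Its log2 fold change by edgeR was 8.27 there (SE 1.33, adjusted p = 0.147). Of the 8 edgeR fits that each left out 1 sum, 7 called Chil3 and the fit without Ctrl_DSS of batch 2 did not (adjusted p 6.19e-07 to 0.479). C1qa had -1.43 (SE 0.80, adjusted p = 0.645), C1qb -1.25 (SE 0.66, adjusted p = 0.609), C1qc -1.35 (SE 0.75, adjusted p = 0.637) and Apoe -0.90 (SE 0.81, adjusted p = 0.832). Of these 5 differences none passed by edgeR. The 2 genes called were Jchain and Iglc2, plasma cell genes, both lower with TG_DSS. A single Ctrl_DSS barcode of batch 2 held 2124 of that sum's 2127 Jchain UMIs, and the part of such mixed barcodes in the members' values was not tested.

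TG_DSS against TG_WT called 0 of 10 members in either set by edgeR, beside 0% of 2500 genes in myeloid and 0.0427% of 2342 genes in mononuclear-side barcodes. Without adjustment 57 and 22 genes had p under 0.05, and DESeq2 called 0 in both sets. The gene called was Jchain, lower with TG_DSS. In mononuclear-side barcodes the log2 fold change of Chil3 was 2.35 (SE 0.78, adjusted p = 0.999), positive in both batches (4.73 and 1.44). Cd163 had 3.25 (SE 0.91, adjusted p = 0.999). For Ly6c2, Ccr2, the 3 C1q genes, Mrc1, Apoe and Adgre1 the within-batch differences had opposite signs. C1qa, for instance, was 0.306-fold with TG_DSS relative to TG_WT in batch 1 (counting interval 0.266 to 0.351) and 2.73-fold in batch 2 (2.45 to 3.06).

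TG_WT against Ctrl_WT called 0 of 10 members in either set by edgeR, beside 0.0400% of genes in myeloid and 0% in mononuclear-side barcodes, while 240 and 137 genes had p under 0.05 without adjustment, and DESeq2 called 33 and 7. The single gene called was Thbs1, higher with TG_WT. In mononuclear-side barcodes Cd163 was at -3.89 on the log2 scale (SE 1.01, adjusted p = 0.790). Ctrl_DSS against Ctrl_WT also called 0 of 10 members in either set by edgeR, beside 0% and 0.0427% of genes, while 132 and 107 genes had p under 0.05 without adjustment, and DESeq2 called 0. The single gene called there was again Jchain, higher with Ctrl_DSS. The comparisons share sums, since each tag enters 2 of them.

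The TG_WT sum of batch 1 decided many of these calls. It entered the spread shared by all comparisons, and without it more genes passed the filter as well (3834 in myeloid and 3681 in mononuclear-side barcodes). In mononuclear-side barcodes without it, TG_DSS against Ctrl_DSS called 3 of 10 members beside 3.94% of genes. Chil3 was higher with TG_DSS (log2 fold change 8.0, edgeR adjusted p = 6.19e-07), and C1qa (-1.28, adjusted p = 0.0209) and C1qc (-1.21, adjusted p = 0.0421) were lower. C1qb (-1.08, adjusted p = 0.0685) and Apoe (-0.77, adjusted p = 0.0651) did not pass. In myeloid barcodes without that sum the contrast called 5 of 10 members beside 9.34% of genes, Chil3 higher and C1qa, C1qb, C1qc and Apoe lower with TG_DSS. Myeloid sums include neutrophil-side barcodes, which were 52.2% and 44.4% of TG_DSS and 0 of 9 and 10.5% of Ctrl_DSS, and their part in these lower values was not tested. Leaving out the TG_WT sum of batch 2 instead called those same 5 members in myeloid barcodes, beside 7.06% of 2776 genes, but Chil3 alone in mononuclear-side barcodes, beside 1.68% of 2567. With TG_WT represented by batch 1 alone, TG_DSS against TG_WT called Apoe, lower with TG_DSS, in both sets, and Chil3, higher with TG_DSS, in mononuclear-side barcodes (1 and 2 of 10 members, beside 0.144% and 0.623% of genes).

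With TG_WT represented by batch 2 alone, whose spread was then taken to be that of the other tags, TG_WT against Ctrl_WT called 8 of 10 members in mononuclear-side barcodes beside 4.02% of genes. Ly6c2 and Chil3 were higher with TG_WT, Ly6c2 by at least 3.76-fold over the limit of Ctrl_WT in batch 2 and Chil3 by a log2 fold change of 2.33 (edgeR adjusted p = 0.0235). C1qa (-2.65, adjusted p = 7.94e-04), C1qb (-2.06, adjusted p = 0.00765), C1qc (-2.28, adjusted p = 0.00539), Cd163 (-3.65, adjusted p = 0.0188), Mrc1 (-2.72, adjusted p = 0.00447) and Apoe (-2.49, adjusted p = 5.00e-05) were lower. Ccr2 and Adgre1 did not pass. In myeloid barcodes the same step called 7 of 10 members beside 3.42% of genes. In batch 1 the signs were the other way for Chil3, the C1q genes, Mrc1 and Apoe. There Chil3 with TG_WT was 0.260-fold that with Ctrl_WT (counting interval 0.0274 to 1.26, from 2 UMIs in TG_WT) and Mrc1 1.30-fold (0.815 to 2.06), while C1qa was 1.76-fold (1.46 to 2.13) and Apoe 2.35-fold (2.17 to 2.54).

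**Figure D2:**
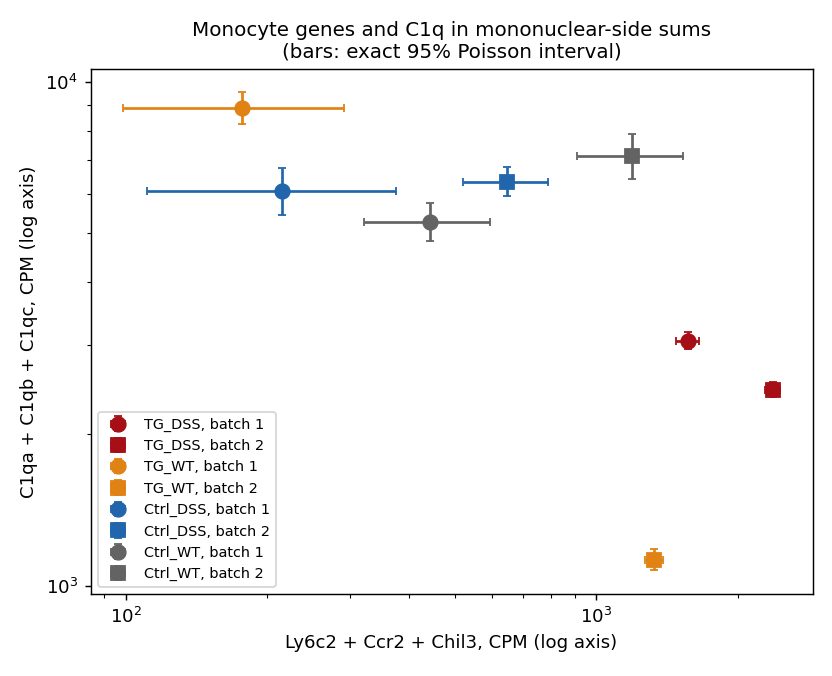
Summed C1qa, C1qb and C1qc (y axis, CPM) against summed Ly6c2, Ccr2 and Chil3 (x axis, CPM) in mononuclear-side barcodes, both axes on a log scale, 1 point per tag and batch with bars for exact Poisson 95% intervals. TG_WT of batch 1 (177 and 8866 CPM, monocyte sum first) and TG_WT of batch 2 (1324 and 1126 CPM) have the highest and the lowest C1q sum of all 8, and both TG_DSS points lie below and to the right of the Ctrl points. Chil3 alone gave 744 and 1738 CPM of the monocyte sums with TG_DSS.

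Set against each other, the C1q sum was 1.96 and 1.03 times the monocyte sum with TG_DSS in batches 1 and 2, 50.2 and 0.850 times with TG_WT, 28.2 and 9.83 times with Ctrl_DSS, and 11.9 and 5.98 times with Ctrl_WT. The summed monocyte genes were at 1563 and 2368 CPM with TG_DSS, 177 and 1324 with TG_WT, 215 and 645 with Ctrl_DSS, and 442 and 1189 with Ctrl_WT. That ratio was below 2 in both TG_DSS sums and in TG_WT of batch 2, and above 5 in the other 5 sums. Of the monocyte sums, Chil3 alone gave 744 and 1738 CPM with TG_DSS and 23.5 and 601 with TG_WT. It gave 0 and 6.86 CPM with Ctrl_DSS, and 90.4 and 99.1 with Ctrl_WT. Ccr2 overlapped between all tags, so the sum does not show the monocyte genes differing as a group. The ratio without Chil3 was not computed. In every tag the ratio was lower in batch 2 than in batch 1. Genes of other cells differed between the sums as well. Summed neutrophil genes in the same barcodes were at 2577 and 977 CPM with TG_DSS, 130 and 998 with TG_WT, 197 and 75.4 with Ctrl_DSS, and 90.4 and 218 with Ctrl_WT. Of the 8 genes, 8 and 8 were found with TG_DSS, 4 and 7 with TG_WT, 3 and 5 with Ctrl_DSS and 3 and 5 with Ctrl_WT, while Ly6g was at 0 in every sum but those of TG_DSS. Summed dendritic cell genes were at 87.3 and 97.0 CPM with TG_DSS, 70.6 and 112 with TG_WT, 502 and 267 with Ctrl_DSS, and 362 and 198 with Ctrl_WT. Of these 7 genes, 6 and 7 were found with TG_DSS, 2 and 7 with TG_WT, 6 and 6 with Ctrl_DSS and 4 and 3 with Ctrl_WT, with Zbtb46 at 0 in TG_WT and Ctrl_DSS of batch 1 and in both Ctrl_WT sums. The dendritic sum was lowest in TG_WT of batch 1, where the ratio was highest. The part of either list in the ratio was not tested.

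Within single barcodes the monocyte genes were found with one another more often, and with C1q less often, than their separate frequencies would give if independent. The counts are over the 181 and 471 tagged mononuclear-side barcodes of batches 1 and 2 and are given without a test. Ly6c2 and Chil3 were found together in 36 and 129 barcodes, against 23.5 and 95.5 from independence (ratios 1.53 and 1.35). Ly6c2 and Ccr2 met in 47 and 151 barcodes, against 38.1 and 124 (1.23 and 1.22). Chil3 and C1qa met in 15 and 30 barcodes, against 33.0 and 66.7 (0.45 and 0.45), and Chil3 and Cd163 met in 1 and 3, against 3.58 and 12.1.

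Ccr2 behaved differently from Chil3 toward C1q. It met C1qb in 58 and 95 barcodes, against 60.8 and 101 from independence (0.95 and 0.94), and C1qa in 49 and 71, against 53.7 and 86.6. Ly6c2 lay between, meeting C1qa in 19 and 27 barcodes against 27.1 and 53.0 (0.70 and 0.51). Adgre1 with Ly6c2 was near independence (24 and 53 barcodes, against 23.1 and 61.0). The macrophage genes clustered: C1qa and C1qc met in 77 and 114 barcodes, against 37.6 and 38.7, and 7 of 9 and 22 of 24 barcodes with Cd163 also had Mrc1. Apoe was so frequent that it met Chil3 about as often as independence would give (56 and 207 barcodes, against 54.9 and 192).

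Deeper barcodes show more genes, which can raise all of these ratios. After each barcode was thinned to 2000 UMIs (164 and 441 barcodes remained), Chil3 and C1qa met in 8 and 10 barcodes, against 22.0 and 38.1 (0.36 and 0.26), and Ly6c2 and Chil3 in 16 and 60, against 10.0 and 42.4 (1.60 and 1.41). Both departures were as large as before thinning or larger. The barcodes pool tags that differ in both genes, so part of each ratio is the difference between tags.

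**Figure D3:**
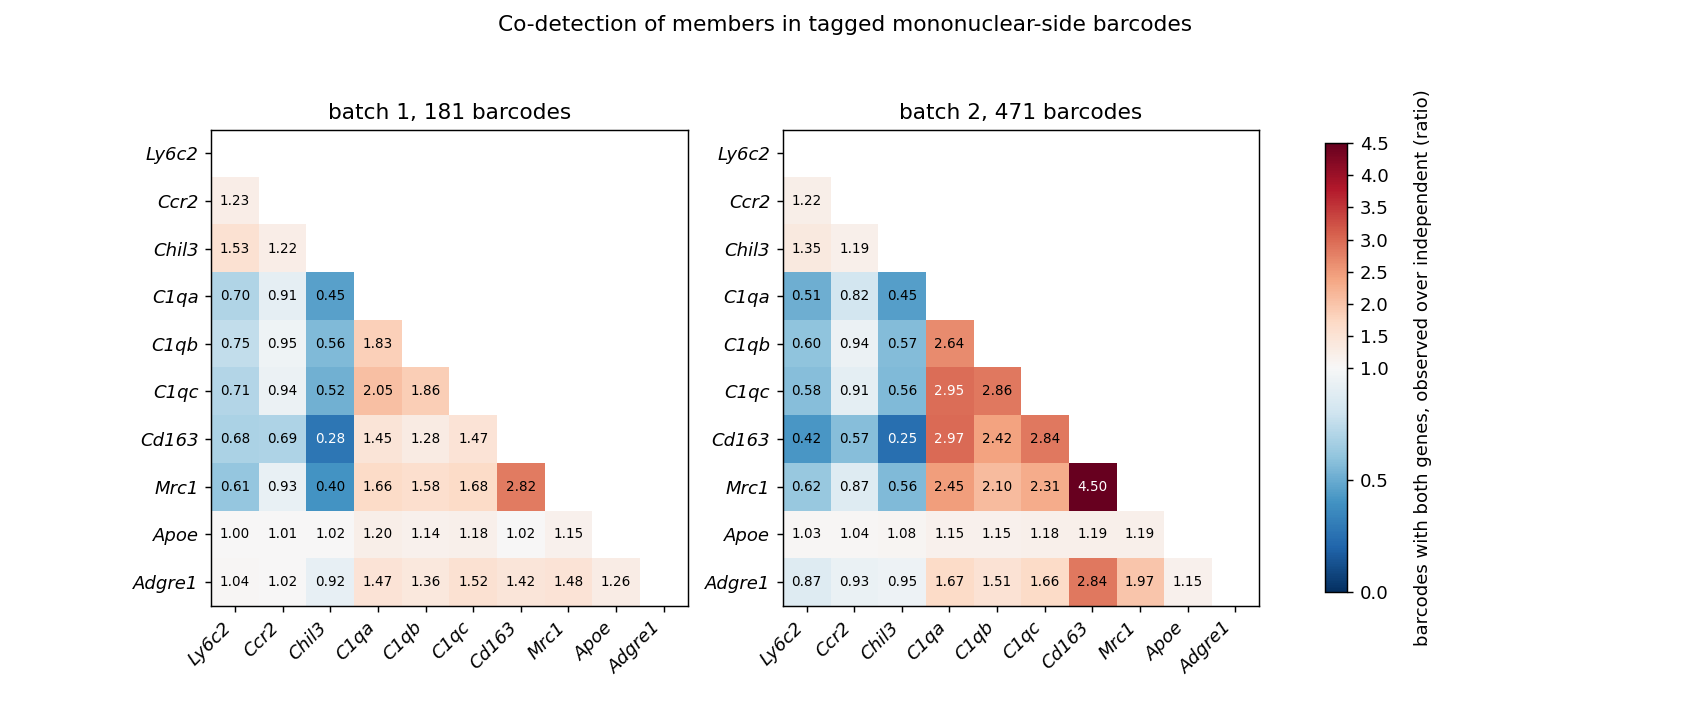
Number of tagged mononuclear-side barcodes with both members of a pair, divided by the number expected if they were independent (colour and printed ratio), for all pairs of the 10 members, 1 panel per batch (181 and 471 barcodes). Pairs of macrophage genes lie above 1, and Chil3 lies below 1 with the 3 C1q genes, Cd163 and Mrc1 in both batches.

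Barcodes were then grouped by whether any monocyte gene and any C1q gene were found, to see how the other members ran between the ends. This grouping was chosen after the data were seen. In batches 1 and 2, 73 and 262 barcodes had monocyte genes without C1q, 65 and 115 had both, 33 and 60 had C1q without monocyte genes, and 10 and 34 had neither. Their median depths were 4315 and 5511 UMIs without C1q, 5577 and 6949 with both, and 3929 and 4509.5 with C1q alone, so the barcodes with both were the deepest. Levels below are given in that order and without a test, since 1 library per batch holds all of them.

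The members that did not set the groups stood higher from each group to the next. Apoe was at 1660.1, 8538 and 15265 CPM in batch 1 and 1283, 4579 and 12264 CPM in batch 2. Mrc1 was at 38.8, 260 and 1059 CPM in batch 1 and 38.6, 180.2 and 1053 CPM in batch 2. Cd163 was at 5.54, 24.1 and 146 CPM in batch 1 and 3.16, 26.5 and 524 CPM in batch 2. Adgre1 was at 63.7, 161 and 271 CPM in batch 1 and 58.8, 107 and 266 CPM in batch 2. Apoe, Mrc1, Cd163 and Adgre1 were thus all highest in barcodes with C1q and no monocyte gene. Each also stood above the first group in barcodes with both. Mrc1 was found in 40% and 33.9% of barcodes with both and in 51.5% and 60% of those with C1q alone.

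The groups were defined by the monocyte genes, so these are instead given over all tagged mononuclear-side barcodes with any C1q (98 and 175) and with none (83 and 296). Chil3 was at 95.3 CPM with C1q and 1198 CPM without it in batch 1, and at 344 and 1578 CPM in batch 2. Ly6c2 was at 173 and 191 CPM in batch 1 and at 109 and 219 CPM in batch 2. Ccr2, by contrast, was at 572 and 413 CPM in batch 1 and at 518 and 505 CPM in batch 2. Ccr2 was found in 60.2% of barcodes with C1q and 69.9% of those without it in batch 1, and in 60% and 68.9% in batch 2. Its level and its share of barcodes thus ran in opposite directions in batch 1, while in batch 2 the 2 levels were close.

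**Figure D4:**
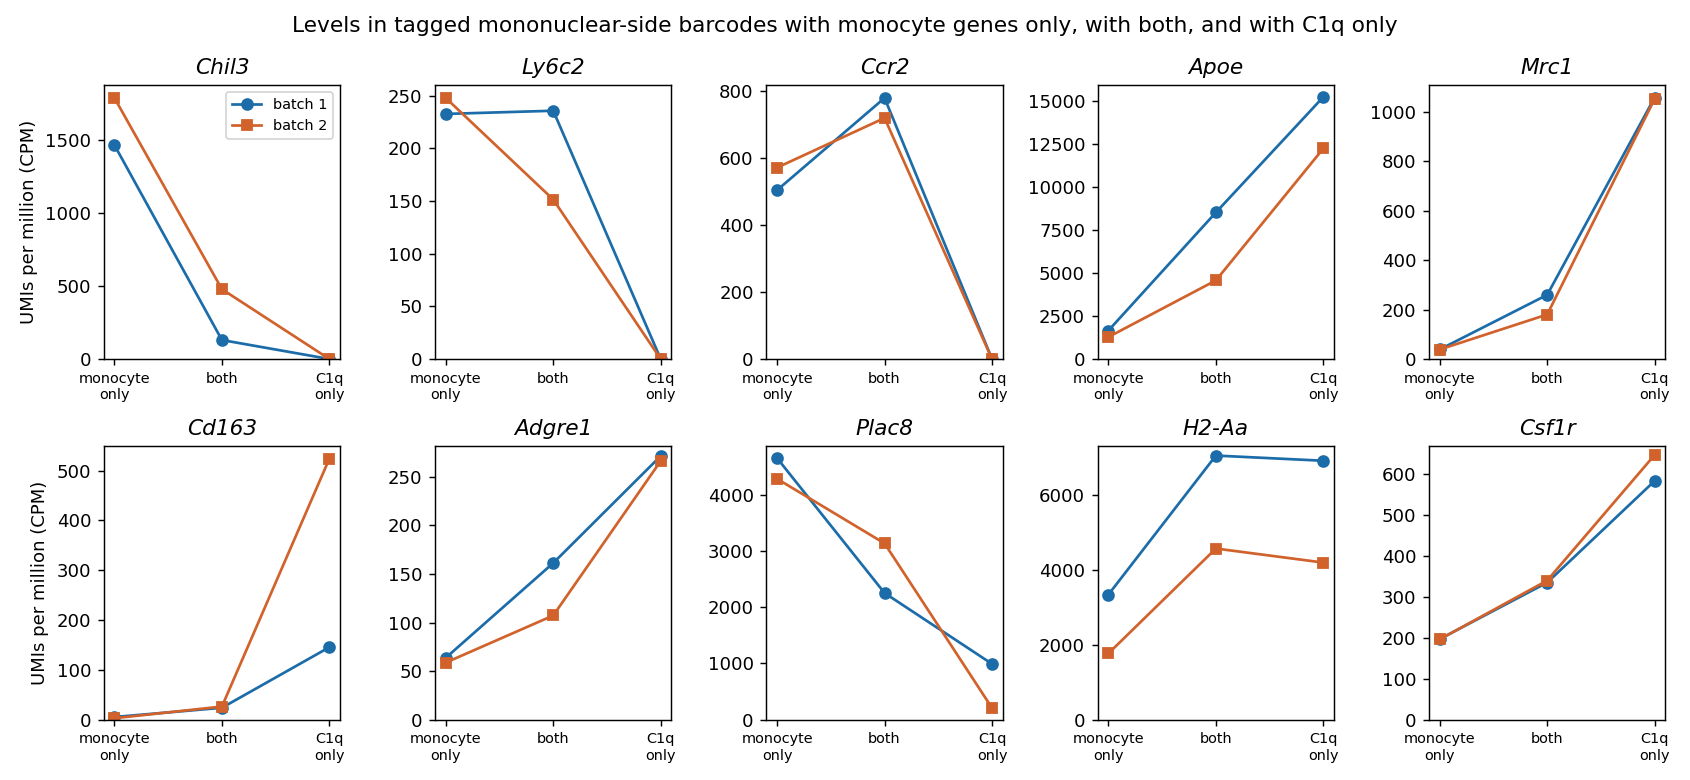
Level (CPM, linear scale from 0, y axis) of members and other monocyte and macrophage genes in tagged mononuclear-side barcodes with monocyte genes and no C1q, with both, and with C1q and no monocyte gene (x axis), 1 line per batch. Ly6c2, Ccr2 and Chil3 are at 0 in the last group by its definition. Apoe, Mrc1, Cd163 and Adgre1 climb from left to right in both batches, for example Mrc1 at 38.8, 260 and 1059 CPM in batch 1.

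Other genes, chosen after their values were seen, are given in the same order of groups. Plac8, a gene of blood monocytes, was at 4648, 2252 and 993 CPM in batch 1 and 4281, 3134 and 209.5 CPM in batch 2. H2-Aa, an MHC class II chain, was at 3342, 7053 and 6915 CPM in batch 1 and 1771, 4571 and 4196 CPM in batch 2. Its level in barcodes with both was thus close to that in barcodes with C1q alone. Csf1r was at 197, 334 and 582 CPM in batch 1 and 196, 339 and 646 CPM in batch 2. Cx3cr1, the fractalkine receptor of gut macrophages, was at 36.0, 159 and 205 CPM in batch 1 and 37.9, 150.4 and 181 CPM in batch 2. Spp1 (osteopontin) peaked in barcodes with both, at 144, 602 and 46.3 CPM in batch 1 and 107, 387 and 53.8 CPM in batch 2. Il1b was at 3719, 2760.0 and 2442 CPM in batch 1 and 5112, 3001 and 2696 CPM in batch 2. Fn1 (fibronectin) and Arg1 (arginase) ran differently in the batches, Fn1 at 593, 705 and 1072 CPM in batch 1 and 695, 777 and 42.5 CPM in batch 2, and Arg1 at 16.6, 351 and 489.7 CPM in batch 1 and 57.6, 312 and 0 CPM in batch 2. S100a8, a neutrophil gene, also did not run alike in the batches (363, 1427 and 39.7 CPM in batch 1, 525, 145 and 110.4 CPM in batch 2), and the part of neutrophil RNA in these groups was not tested.

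The groups were spread unevenly over the tags. Barcodes with monocyte genes and no C1q made up 47.9% and 55.9% of those labelled TG_DSS (68 of 142 and 124 of 222), 0 of 15 and 61.0% (136 of 223) of TG_WT, 0 of 8 and 12.5% (2 of 16) of Ctrl_DSS, and 31.2% (5 of 16) and 0 of 10 of Ctrl_WT. The counts of 0 allow shares of up to 20% of TG_WT and 37.5% of Ctrl_DSS in batch 1 and 30% of Ctrl_WT in batch 2. Both TG_DSS shares lay above both Ctrl_DSS and both Ctrl_WT shares, but the Clopper-Pearson interval of Ctrl_WT in batch 1 (11% to 58.7%) held the TG_DSS value. Barcodes with both kinds made up 36.6% and 18.9% of TG_DSS, 33.3% and 26.5% of TG_WT, 37.5% and 50% of Ctrl_DSS, and 31.2% and 60% of Ctrl_WT. Barcodes with C1q alone made up 12% and 16.7% of TG_DSS, 53.3% and 6.73% of TG_WT, 37.5% and 25% of Ctrl_DSS, and 31.2% and 40% of Ctrl_WT. An exact permutation test of 2 sums against 2 cannot go below p = 0.33, so these shares carry no test.

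**Figure D5:**
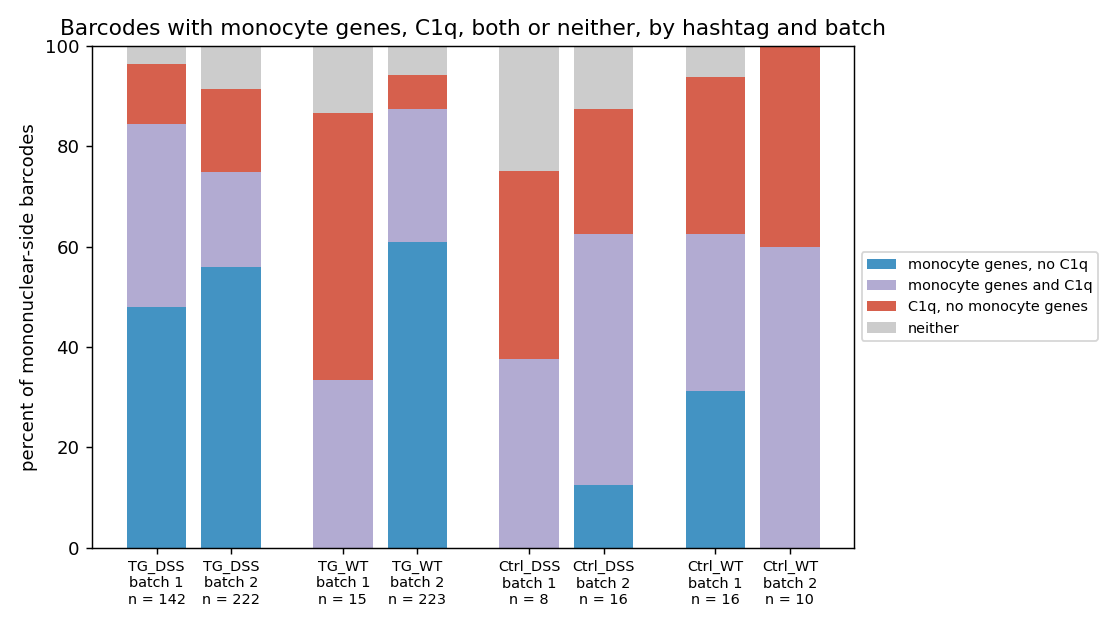
Share of mononuclear-side barcodes (percent, y axis) with monocyte genes and no C1q, both, C1q and no monocyte gene, or neither, by tag and batch (x axis, with the number of barcodes). TG_DSS in both batches and TG_WT in batch 2 have monocyte genes without C1q as their most frequent class (47.9%, 55.9% and 61.0%), on 142, 222 and 223 barcodes, while the other sums rest on 8 to 16.

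Over all myeloid barcodes, with any of the 7 macrophage genes counted and Apoe among them, barcodes with both kinds made up 35.6% and 39.5% of TG_DSS, 21.7% and 54.9% of TG_WT, 33.3% and 42.1% of Ctrl_DSS, and 50% and 60% of Ctrl_WT. Those with neither kind made up 40.1% and 32.4% of TG_DSS, 17.4% and 20.7% of TG_WT, 33.3% and 21.1% of Ctrl_DSS, and 11.1% and 0 of 10 of Ctrl_WT. Neutrophil-side barcodes were 52.2% and 44.4% of the myeloid barcodes with TG_DSS, 26.1% and 25.9% with TG_WT, 0 of 9 and 10.5% with Ctrl_DSS, and 5.56% and 0 of 10 with Ctrl_WT. Among mononuclear-side barcodes, as means of 2 batches, those with neither kind made up 3.41% of TG_DSS, 2.02% of TG_WT, 15.6% of Ctrl_DSS and 0% of Ctrl_WT. The part of neutrophil-side barcodes in the class shares was not tested.

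Across myeloid barcodes, the genes outside the members whose levels ran most like the C1q sum were Ms4a7 (Pearson r of log-normalised values 0.68 and 0.61 in batches 1 and 2), Lgmn (0.69 and 0.58), Selenop (0.59 and 0.57), Pf4 (0.53 and 0.55), H2-Eb1 (0.66 and 0.53) and H2-Aa (0.66 and 0.51), among 5901 genes over 435 and 1006 barcodes. Of the members outside C1q, Apoe had 0.72 and 0.64, Mrc1 0.54 and 0.54 and Adgre1 0.46 and 0.43. Ccr2 had 0.29 and 0.11, Ly6c2 -0.07 and -0.13, and Chil3 -0.14 and -0.18. Outside the members, the genes most like the monocyte sum were Ms4a6c (0.67 and 0.63), S100a4 (0.61 and 0.69), Plac8 (0.59 and 0.61), Tmsb10 (0.59 and 0.61), Rpl36al (0.58 and 0.58) and Lyz2 (0.55 and 0.61). These barcodes share a library and a depth per barcode and include neutrophils, so the values describe them and are no test.

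Wider lists of the path, chosen with results of these data known, gave the following in mononuclear-side barcodes for TG_DSS against Ctrl_DSS, where the median log2 fold change of all 2342 genes was 0.02. Of 12 further monocyte genes, 11 of 12 tested were positive with a median of 2.52, and 0 passed. Of 25 resident macrophage genes, 18 were tested, 6 were positive with a median of -0.24, and 0 passed. Of 7 antigen presentation genes, 0 of 7 tested were positive with a median of -1.08, and 0 passed. Of 15 inflammatory products, 12 were tested and 11 were positive with a median of 3.78 (3.10 with 4 genes absent from Ctrl_DSS set at their lower bound), and 0 passed. Of 9 recruitment and growth ligands, 5 were tested and 4 were positive with a median of 1.19, and 0 passed.

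In all myeloid barcodes 2 of the 12 monocyte genes and 1 of the inflammatory products passed for TG_DSS against Ctrl_DSS, where 4.60% of all genes passed. Neutrophil-side barcodes were 52.2% and 44.4% of these barcodes with TG_DSS and 0 of 9 and 10.5% with Ctrl_DSS, and their part in these values was not tested. Thbs1 (thrombospondin) was at 1115 and 1855 CPM with TG_DSS and 52.9 and 71.0 CPM with Ctrl_DSS (log2 fold change 4.77, edgeR adjusted p = 0.00981). Ifitm6 was at 407 and 437 CPM with TG_DSS and 17.6 and 45.2 CPM with Ctrl_DSS (4.06, adjusted p = 0.0275). Cxcl3, a chemokine for neutrophils, was at 1142 and 912 CPM with TG_DSS and 0 and 6.46 CPM with Ctrl_DSS (adjusted p = 0.0202). All 3 were higher with TG_DSS in both batches. For TG_DSS against TG_WT in mononuclear-side barcodes, 0 genes of any list passed, and the medians were 0.51 for monocyte genes, -0.30 for resident macrophage genes, -0.22 for antigen presentation, -0.59 for inflammatory products and -0.21 for ligands, beside 0.01 for all genes.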

How the data were processed

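Droplet 3′ RNA-seq of colon cells was measured in 2 gene expression and 2 hashtag libraries. The authors deposited raw UMI counts for all barcodes, made with Cell Ranger 7.0.0 on mm10 per the submitters' processing notes. Which annotation release they used was not given in the labels. Of 32285 gene IDs, 32158 were found in GENCODE M21.

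Barcodes with at least 500 UMIs that departed from the ambient profile (adjusted p at most 0.01), or of high total, were cells. Filters of 250 genes or more and no more than 25% mitochondrial UMIs left 7157 in batch 1 (median 12301 UMIs) and 6472 in batch 2 (median 7090.5 UMIs). Tags were called by mixture thresholds. Cells over several thresholds (266 and 699) were left out as doublets and untagged cells (4541 and 2613) were left out of comparisons. No other doublet caller was run.

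The sums of each tag in each batch went into edgeR 4.0.16 under R 4.3.3 (filterByExpr, TMM, tag and batch terms, quasi-likelihood). DESeq2 1.42.0 was an alternative. Batch on the labels pairs the sums, since all tags of a batch shared 1 library. Deviations of the pairs correlated between -0.103 and 0.0968 over 5119 genes. Poisson and Clopper-Pearson intervals are 95%, and a count of 0 was given a limit of 3 counts. Poisson intervals and limits in CPM take UMIs as independent, although UMIs of a barcode can come together. The code was tested on simulated counts: of genes changed 4-fold, it called 39 of 90 tested for TG_DSS against Ctrl_DSS in mononuclear-side barcodes, and 81 of 96 changed 8-fold. Alternatives were scaling, low-count filter, batch term, 10% mitochondrial limit, tag rule, gate, thinning to 2000 UMIs and leaving out each sum.

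All 10 members are named. From wider lists at most 4 genes of smallest p were named, with the 6 genes most like each member sum and up to 5 passing genes outside the lists. The members and lists were chosen with earlier results of these data known. Plac8, H2-Aa, Csf1r, Cx3cr1, Spp1, Il1b, Fn1, Arg1 and S100a8 in the grouped barcodes were chosen after their values were seen.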

Additional observations from a re-analysis of the deposited data

Results flagged for a closer look

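Barcodes outside the 4 compared sets also carried monocyte genes above the level of Ctrl_WT. In mononuclear-side barcodes with several tags in batch 2, Ly6c2 was at 185 CPM and Chil3 at 503 CPM, on 114 barcodes. In mononuclear-side barcodes without a tag in batch 1, Ly6c2 was at 369 CPM (12 UMIs) and Chil3 at 1630.5 CPM (53 UMIs), on 13 barcodes. Ly6c2 was at 0 and Chil3 at 90.4 and 99.1 CPM with Ctrl_WT. These barcodes were left out because their tag of origin could not be read.

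The Chil3 difference between the DSS and WT tags had opposite signs in the 2 kinds of tag. TG_DSS minus TG_WT averaged 929 CPM and was positive in both batches. Ctrl_DSS minus Ctrl_WT averaged -91.4 CPM and was negative in both batches. The 2 differences were 1020.4 CPM apart. This difference was not tested, the Ctrl values rest on 15 UMIs in 3 barcodes, and the tag names have 2 open readings.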

How the results depend on the processing

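Over the settings run, the log2 fold changes of Chil3, Ly6c2, the C1q genes and Apoe for TG_DSS against Ctrl_DSS kept their direction, and so did Chil3 and Cd163 for TG_DSS against TG_WT. Those of the C1q genes, Apoe, Mrc1 and Adgre1 in either TG_WT comparison changed sign with which TG_WT sum was kept, as did Ly6c2 for TG_DSS against TG_WT and Chil3 for TG_WT against Ctrl_WT. In myeloid barcodes, without a low-count filter 23 genes passed for TG_DSS against TG_WT, 372 for TG_DSS against Ctrl_DSS, 73 for TG_WT against Ctrl_WT (2 members, Ly6c2 and Cd163) and 5 for Ctrl_DSS against Ctrl_WT. With at most 10% mitochondrial UMIs 1 gene passed for TG_DSS against TG_WT and 1 for Ctrl_DSS against Ctrl_WT, and with the highest-tag rule 1, and 3 for Ctrl_DSS against Ctrl_WT. DESeq2 called 219 for TG_DSS against Ctrl_DSS. For TG_WT against Ctrl_WT it called 33, and no replicate block or the highest-tag rule gave 0. In mononuclear-side barcodes, without a filter 25, 131, 43 and 6 genes passed in the same order, with 1 member in each of the first 3 (Cd163, Chil3, Ly6c2). DESeq2 called 0, 29, 7 and 0. The fit without the replicate block called 0 for TG_DSS against TG_WT, TG_DSS against Ctrl_DSS and Ctrl_DSS against Ctrl_WT. The Csf1r gate gave 1 for TG_DSS against Ctrl_DSS and 1 for TG_WT against Ctrl_WT. Chil3 passed in mononuclear-side TG_DSS against Ctrl_DSS with DESeq2, without a filter and by the highest-tag rule (1 member each). The block changed no member's call.

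Leaving out each sum gave 0 to 7, 12 to 358, 0 to 131 and 0 to 2 genes in myeloid barcodes, and 0 to 16, 1 to 145, 0 to 148 and 0 to 8 in mononuclear-side barcodes, in the same order. Members passing ranged over 0 to 1, 0 to 5 and 0 to 7 in myeloid, and 0 to 2, 0 to 3 and 0 to 8 in mononuclear-side barcodes, for the first 3 comparisons, the highest without a TG_WT sum.

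The shares of classes moved as follows, as means of 2 batches. The setting with C1q alone also restricts the barcodes to the mononuclear side and was chosen after seeing the data. For TG_DSS, barcodes with monocyte genes alone were 26.6% without Apoe and 51.9% with C1q alone, and those with both were 29.5% thinned, 29.8% from 2 UMIs, 23.4% without Apoe, 68.7% of mononuclear-side barcodes and 27.8% with C1q alone. For TG_WT, monocyte genes alone were 17.4% without Apoe and 30.5% with C1q alone. For Ctrl_DSS, both were 25.9% thinned, and macrophage genes alone 41.1% thinned and 35.4% from 2 UMIs. For Ctrl_WT, monocyte genes alone were 8.33% from 2 UMIs and 15.6% with C1q alone, both were 40.2% thinned, 33.9% from 2 UMIs and 45.6% with C1q alone, and macrophage genes alone were 45.5% thinned and 49.4% from 2 UMIs. The cause of these shifts was not tested. The 8 to 16 Ctrl barcodes per sum limit every Ctrl value.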
